A study of Homo sapiens with 14 samples.

Results

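Replication-dependent histone genes were followed in U87MG, a human glioblastoma cell line, whose spheres had been treated with conditioned medium (CM) of mesenchymal stem cells (MSCs). A gene was included when a transcript cluster (the probes of 1 transcript unit on the array) carried exactly 1 gene symbol and that symbol was one of a replication-dependent H1, H2A, H2B, H3 or H4 gene, pseudogenes left out. This gave 32 genes among the 22411 genes with a cluster of their own, measured by 33 of 67528 clusters. They comprised 6 H1, 9 H2A, 15 H2B and 2 H4 genes, of which 26 lie on chromosome 6 and 6 on chromosome 1. The brightest cluster stood for a gene, which mattered for H2BC11 alone. None of the replication-dependent H3 genes that the rule names had a cluster of its own. Another 36 clusters carried several histone symbols each, 12 of them of H3 genes and 13 of H4 genes, and are described below as clusters without naming a gene.

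All 14 arrays hold RNA of U87MG cells. The untreated gliospheres (3 arrays, labelled positive spheres) were grown as spheres in stem cell medium with growth factors from cells isolated by flow sorting. BMT (3 arrays) and WJT (3 arrays) are gliospheres kept for 7 days in CM of bone marrow MSCs or of Wharton's jelly MSCs. The control group joined 2 arrays of negative spheres, labelled as not being stem cells, with 3 arrays of the cultured, untreated cell line. By the methods the negative cells came from the same sort, and the cell line was expanded in medium with serum. Sorting and culture therefore cannot be told apart between gliospheres and the cell line. All groups come from 1 cell line. By the methods the CM came from 3 separate MSC samples of each source, so that BMT and WJT replicates may also carry the spread between MSC samples. There were 8 measured markers of glioma stem cells and neural cells. PROM1 (the CD133 antigen of the sort), SOX2, OLIG2, MSI1, GFAP and S100B never exceeded a log2 signal of 3.97 on any array. This was close to the array medians of 3.58 to 3.92, so these transcripts did not mark the gliospheres on the array. The study characterized its gliospheres by antibody, with flow cytometry for CD133 and immunostaining, and array RNA does not measure those proteins. The other 2 markers were above the array medians, NES at 4.13 to 4.84 and MAP2 at 4.77 to 6.47. MAP2, a neuronal microtubule protein, differed by -0.82 ± 0.3 (SE) between gliospheres and control and NES by 0.34 ± 0.11 between BMT and gliospheres, neither past the adjusted threshold (adjusted p = 0.309 and 0.438 by limma).

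Histones package DNA. The core histones H2A, H2B, H3 and H4 form the nucleosome, and H1 binds the linker DNA between nucleosomes. Replication-dependent genes lie in clusters, have no introns and are transcribed mainly in S phase, when new DNA needs new nucleosomes. Most of their mRNAs end in a stem-loop bound by SLBP instead of a poly(A) tail, and they are degraded when replication stops. A lower signal in RNA from whole cultures can therefore reflect fewer cells in S phase or less RNA in each cell, and these cannot be told apart here.

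The promoters of 3 genes are shown because these were the H1 gene and the 2 H2B genes of smallest p in the limma F-test over the 4 groups. They are RefSeq sequences of GRCh38.p14, from 250 bases before to 50 bases after the start site, 5′ to 3′ on the strand of the gene. Capitals mark every match on either strand to the TATA box (TATAAA), the CCAAT box (CCAAT), the octamer of H2B promoters (ATTTGCAT) and the H1 box (AAACACA). In H2BC12, for which the table lists 2 start sites and the first is shown, the upstream TATA matches of both strands overlap.
H1-4, chr6:26156079-26156378, + strand: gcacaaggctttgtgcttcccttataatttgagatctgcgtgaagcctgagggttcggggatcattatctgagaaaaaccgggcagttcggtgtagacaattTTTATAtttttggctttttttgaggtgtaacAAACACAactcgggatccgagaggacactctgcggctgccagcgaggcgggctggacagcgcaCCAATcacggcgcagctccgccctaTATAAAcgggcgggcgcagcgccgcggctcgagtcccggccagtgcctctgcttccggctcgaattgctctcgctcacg
H2BC21, chr1:149886633-149886932, - strand: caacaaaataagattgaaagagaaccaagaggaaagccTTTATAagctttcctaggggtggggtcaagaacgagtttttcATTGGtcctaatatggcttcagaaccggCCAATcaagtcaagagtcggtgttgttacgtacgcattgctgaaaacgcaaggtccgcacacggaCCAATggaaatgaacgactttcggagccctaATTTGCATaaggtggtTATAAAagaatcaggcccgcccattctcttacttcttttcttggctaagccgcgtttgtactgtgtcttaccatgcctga
H2BC12, chr6:27146809-27147108, - strand: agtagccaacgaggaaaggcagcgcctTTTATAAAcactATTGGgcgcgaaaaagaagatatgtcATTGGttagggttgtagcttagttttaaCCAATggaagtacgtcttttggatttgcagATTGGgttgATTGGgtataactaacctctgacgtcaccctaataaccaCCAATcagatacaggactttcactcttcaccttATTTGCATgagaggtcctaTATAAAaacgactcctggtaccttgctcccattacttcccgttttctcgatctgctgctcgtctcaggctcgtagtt
Both H2B promoters had the octamer with its first base at -46 from the start site, followed by a TATA match at -30 in H2BC21 and at -27 in H2BC12. In H1-4 the H1 box began at -117, the CCAAT box at -54 and the proximal TATA match at -29. RefSeq promoters were matched for 30 of the 32 members. The octamer was found in 11 of 15 H2B, 6 of 8 H2A and 0 of 6 H1 promoters. Its share over all 27305 genes with a listed promoter was 2.19%. All H2A matches lay on the opposite strand, at -118 to -208, while those of H2B genes other than H2BC17 lay on the strand of the gene. Windows of head-to-head genes overlap. H2AC20 with H2BC21, H2AC14 with H2BC14 and H2AC1 with H2BC1 each counted the same octamer for both genes, so the counts are not independent. The H1 box was found in 6 of 6 H1 promoters, in 1 of 8 H2A promoters and in 0 of 15 H2B promoters, against 6.94% of all genes. A CCAAT box was present in 29 of 30 members and 39.7% of all genes, and a TATA match in 20 of 30 and 14%. These are matches of letters in a window and not measured binding.

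Signal levels differed widely among the members. The highest mean log2 signal over the 14 arrays belonged to H2AC20 (17), followed by H1-4 (14.71), H2BC12 (14.27), H4C3 (14.11) and H2AC21 (10.36). The second H1 gene was H1-2 with 8.34 and the second H2B gene H2BC11 with 8.99. Probes differ between clusters, so this order describes signals and not RNA amounts. A mean of at least 5 was reached by 23 members, and the other 9 averaged from 2.77 (H4C7) to 4.87 (H2BC13), where the 10th percentile of an array was 2.97 to 3.15. Of these 9, 4 had a mean under the highest array median. Copies of histone genes are nearly identical in sequence, and probes of one gene may also bind RNA of another.

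The 14 arrays differed in the level of the whole family before any treatment was considered. Gliospheres replicate 3 lay below both other gliospheres arrays in 29 of 32 members, a pattern shown by 36.6% of all clusters, and it was the lowest of all 14 arrays for 17 members. Its median distance from the mean of replicates 1 and 2 was -1.07 log2 over the members and -0.01 over all clusters. The members with the widest distance were H2BC14 (5.56 against 8.55), H2BC10 (6.46 against 9.29) and H2AC21 (8.09 against 10.35). The exceptions were H2BC21, higher by 0.67, H2BC18 (0.16) and H1-6 (0.03).

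At the upper end, negative spheres replicate 1 was the highest array for 13 members and cell line replicate 2 for 11. Centred on each gene's mean, the median of the members was 0.84 in negative spheres replicate 1 against 0.12 in replicate 2. Within the cell line it was -0.13, 0.7 and 0.14 in replicates 1, 2 and 3. BMT was the most even group with 0.03, 0.09 and -0.25, and the WJT arrays had -0.27, -0.55 and -0.62. The median SD of a member was 0.22 log2 in BMT and in WJT, 0.66 in gliospheres and 0.62 in the control group, so the spread among untreated arrays was about as large as most differences between groups.

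**Figure D1:**
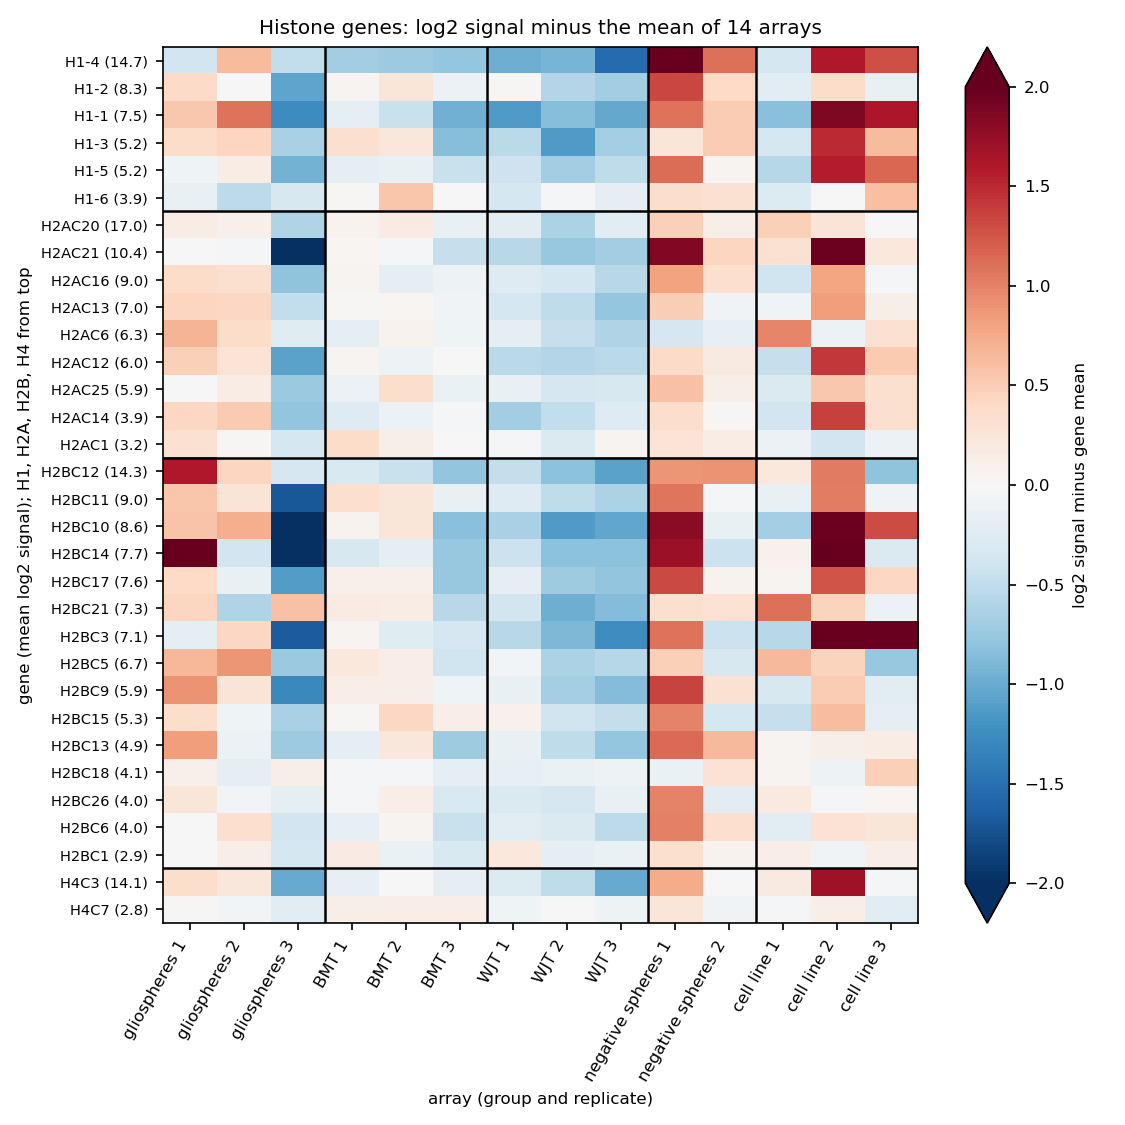
Log2 signal of each of the 32 members (rows, grouped as H1, H2A, H2B and H4 with the mean log2 signal in brackets) minus its mean over 14 arrays (columns, grouped by culture). Red is above and blue below the mean, with the scale ending at 2 and -2; gliospheres replicate 3 is blue in nearly every row and the WJT columns are blue in most.

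In the first comparison, WJT against gliospheres, the question was whether medium of Wharton's jelly MSCs altered histone expression in the spheres. The signal was lower in 28 of 32 members, with a median log2 difference of -0.38, while 53% of all clusters were lower and the median over all clusters was -0.01. By type, 5 of 6 H1, 8 of 9 H2A, 14 of 15 H2B and 1 of 2 H4 genes were lower. No member passed a limma p adjusted over all clusters below 0.05 (lowest adjusted p = 0.674), and neither did any cluster of the array (0%). With the limma p left unadjusted at 0.05 or less, 4 members were lower and 0 higher, where 3.51% of all clusters were lower. At the study's criterion of that p with a fold of at least 2, 1 member was lower and 0 higher, against 0.477% of all clusters.

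That member was H2BC12, an H2B gene that can also make a polyadenylated mRNA. Its log2 signal was 15.87, 14.71 and 13.94 in gliospheres, 13.97, 13.83 and 13.48 in BMT and 13.79, 13.46 and 13.2 in WJT. It was 15.15 and 15.17 in negative spheres and 14.49, 15.31 and 13.47 in the cell line. All WJT arrays thus lay below all gliospheres arrays, while cell line replicate 3 was as low as WJT. The log2 difference of H2BC12 was -1.36 ± 0.51 (SE, adjusted p = 0.674 by limma).

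H1-4, a linker histone gene that was the brightest of its type, gave 14.33, 15.34 and 14.22 in gliospheres, 14.02, 13.98 and 13.94 in BMT and 13.74, 13.79 and 13.17 in WJT. Negative spheres gave 16.98 and 15.82, and the cell line 14.36, 16.31 and 16. The 3 groups of spheres grown as gliospheres did not overlap for this gene, and the order was gliospheres, BMT, WJT. BMT lay below all gliospheres arrays in 1 of 32 members, H1-4, while 7.33% of all clusters showed this. The log2 difference of H1-4 for WJT was -1.06 ± 0.52 (SE), and neither this nor the BMT difference of -0.65 passed the adjusted threshold.

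H1-1, another linker histone gene, was at 8.09, 8.63 and 6.29 in gliospheres, 7.35, 7.1 and 6.59 in BMT and 6.41, 6.69 and 6.53 in WJT. Gliospheres replicate 3 was below every WJT array, so the groups overlapped, and the difference of -1.12 had an SE of 0.67. WJT lay below all 3 gliospheres arrays in 2 members, H1-4 and H2BC12, while 8.43% of all clusters showed this.

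**Figure D2:**
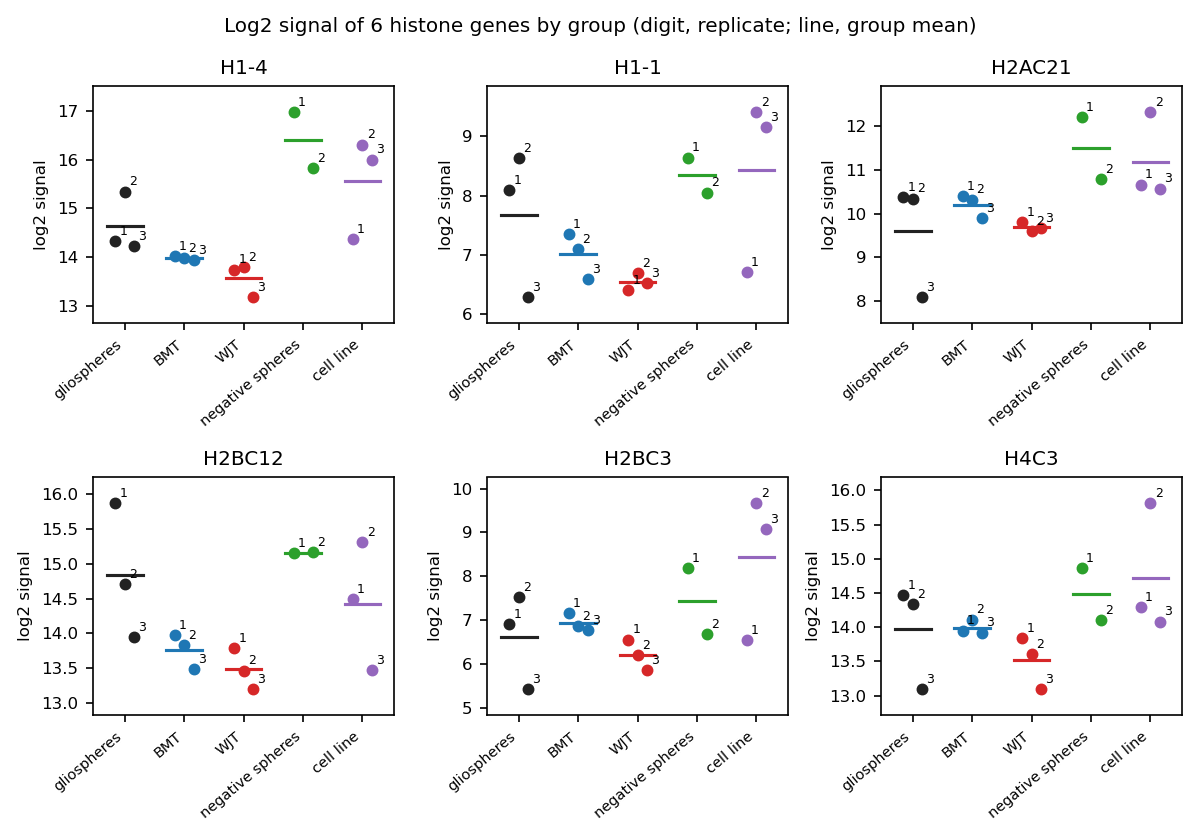
Log2 signal of H1-4, H1-1, H2AC21, H2BC12, H2BC3 and H4C3 on each of the 14 arrays by group; digits give the replicate and horizontal lines the group mean. Gliospheres replicate 3 is the lowest array for H1-1, H2AC21 and H2BC3, shares the lowest value of H4C3 with WJT replicate 3, and WJT lies below all gliospheres arrays for H1-4 and H2BC12.

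Without gliospheres replicate 3 the same comparison gave a median of -0.78, with 31 of 32 members lower and H1-6 the exception. A limma p of 0.05 or less before adjustment was then reached by 13 members, all lower (3.99% of all clusters), and the study's criterion by 6 (0.649%), but still none passed after adjustment (lowest adjusted p = 0.322). The 6 were H1-1 (-1.82), H2BC12 (-1.8), H2BC10 (-1.58), H2BC5 (-1.2), H1-3 (-1.19) and H2BC9 (-1.14), 2 H1 and 4 H2B genes. Looked at after the values were seen, all WJT arrays lay below gliospheres replicates 1 and 2 in 24 of 32 members, against 15.6% of all clusters. In 1 further setting, chosen after seeing the data, gliospheres replicate 3 and the cell line arrays were both left out. The log2 differences were those without gliospheres replicate 3, while errors shrank, for H2AC12 from an SE of 0.38 to 0.1. By limma 5 members passed the adjusted threshold, all lower, where 0.483% of all clusters were lower. They were H2AC12 (-0.93, adjusted p = 0.0111), H1-1 (-1.82, 0.026), H2AC14 (-0.95, 0.0331), H2AC6 (-0.94, 0.0378) and H2BC12 (-1.8, 0.0467). The arrays were left out with the values of these members known, so these p-values are not an independent test. Leaving out WJT replicate 3 or gliospheres replicate 1 took the count at the study's criterion from 1 to 0. Leaving out WJT replicate 1, cell line replicate 1, negative spheres replicate 1 or gliospheres replicate 2 took it to 2. The share of all clusters is not given for these settings.

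BMT against gliospheres asked the same of bone marrow MSC medium, with the same gliospheres arrays as reference. Here 16 members were higher and 16 lower, with a median log2 difference of 0.01 (0.03 over all clusters). No member passed after adjustment (lowest adjusted p = 0.55), as did 0.00889% of all clusters. Before adjustment, 1 member was higher at a p of 0.05 or less and 0 lower, where 4.45% of all clusters were higher. This was H1-6, the testis linker histone, at 3.95, 4.48 and 3.92 in BMT and 3.78, 3.4 and 3.61 in gliospheres, all near background. No member met the study's criterion in either direction, against 0.832% of all clusters lower. The member with the widest difference was H2BC12 (-1.08 ± 0.51, SE), for which BMT replicate 1 (13.97) lay just above gliospheres replicate 3 (13.94).

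This balance also rested on gliospheres replicate 3. Without it, 28 of 32 members were lower in BMT and the median was -0.33. H2BC12 (-1.53) met the study's criterion, alone among the members (0.699% of all clusters lower), and was also the only one lower at a p of 0.05 or less before adjustment (3.69%). It was lower in all 3 BMT arrays than in gliospheres replicates 1 and 2, as were 13 other members, 14 of 32 in all against 12.4% of all clusters. None passed the adjusted threshold (lowest adjusted p = 0.576). The sign turned in 14 of 32 members for BMT and in 3 for WJT, among them H2AC21 (0.6 to -0.15 in BMT and 0.09 to -0.67 in WJT). Leaving out cell line replicate 3 also brought the count at the study's criterion from 0 to 1, a setting whose share of all clusters is not given.

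**Figure D3:**
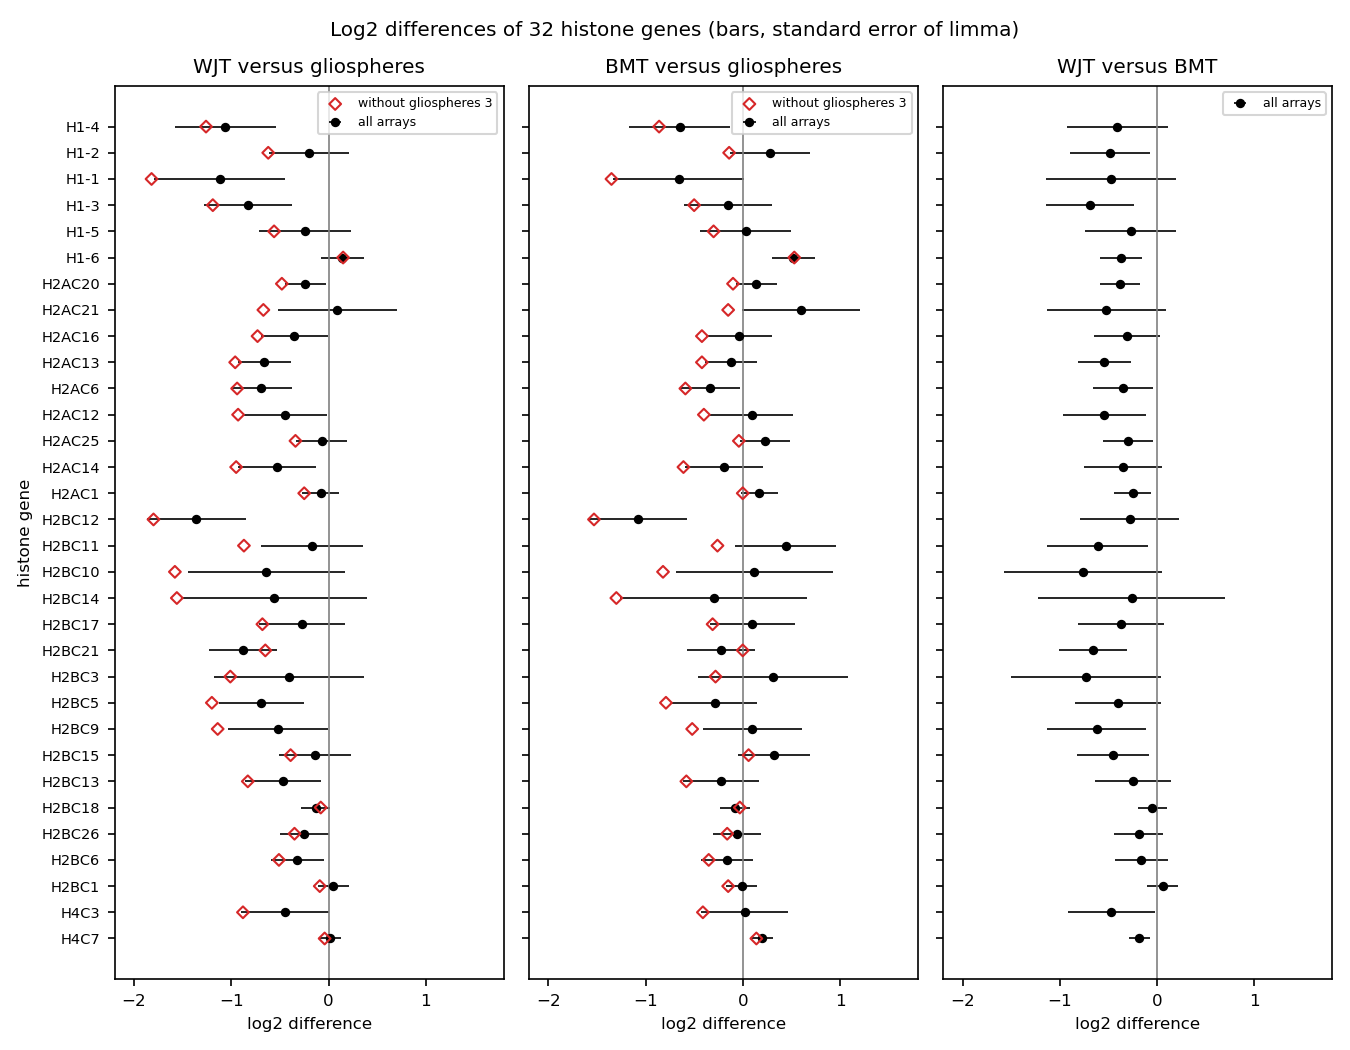
Log2 differences of the 32 members (rows) for WJT against gliospheres, BMT against gliospheres and WJT against BMT; black points with bars are the limma estimate and its SE over all arrays, and open red diamonds the estimate without gliospheres replicate 3. Nearly all red diamonds lie left of the black points in the first 2 panels, and 31 of 32 points lie below 0 in the third.

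In the direct comparison of WJT with BMT, no gliospheres array entered the difference itself. The signal was lower in WJT in 31 of 32 members, H2BC1 being the exception, against 60.9% of all clusters. All 23 members with a mean log2 signal of at least 5 were lower. The median difference was -0.38 log2 (-0.04 over all clusters), and the members ranged from -0.76 to 0.06. The median was -0.44 in the 6 H1, -0.35 in the 9 H2A, -0.37 in the 15 H2B and -0.33 in the 2 H4 genes, and differences between types were not tested. All WJT arrays lay below all BMT arrays in 14 of 32 members, where 9.22% of all clusters did so, and 0 members showed the reverse. No single member passed a test: 0 were at an adjusted p below 0.05 (0% of all clusters, lowest adjusted p = 1) and 0 in either direction at a p of 0.05 or less before adjustment (2.02% of all clusters lower). Without BMT replicate 3, 1 member met the study's criterion (share of all clusters not given). Without gliospheres replicate 3, which enters only through the shared error, 2 members were lower at a p of 0.05 or less before adjustment (H2AC13 and H2AC20, 1.98% of all clusters). In the setting added after seeing the data, which also leaves out the cell line, 8 were (4.21%) and none passed after adjustment (lowest adjusted p = 0.353, H2AC12). The largest differences belonged to H2BC10 (-0.76 ± 0.81, SE), H2BC3 (-0.73 ± 0.77) and H1-3 (-0.69 ± 0.45). The spread in these errors is shared with the more variable gliospheres and control arrays. Members move together from array to array, so the count of 31 is not 31 separate observations.

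H4C3, the 1 H4 gene well above background, was at 13.84, 13.61 and 13.1 in WJT and 13.95, 14.11 and 13.92 in BMT. It was at 14.47, 14.34 and 13.1 in gliospheres, 14.86 and 14.1 in negative spheres and 14.29, 15.81 and 14.08 in the cell line. WJT did not overlap with BMT, but its lowest array equalled gliospheres replicate 3, and the difference was -0.47 ± 0.45 (SE). H2AC20, the brightest member, was at 16.78, 16.37 and 16.77 in WJT and 17.06, 17.16 and 16.84 in BMT, a difference of -0.38 ± 0.21 (SE). It was at 17.15, 17.1 and 16.4 in gliospheres, and again only replicate 3 of that group reached the WJT level.

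Gliospheres against the control group asked how the untreated gliospheres differed from the joined group of negative spheres and cell line. The signal was lower in gliospheres in 28 of 32 members, among them all 6 H1 genes, while 66.1% of all clusters were lower. The median was -0.4 log2, against -0.07 over all clusters. No member passed after adjustment (lowest adjusted p = 0.242), as did 0.569% of all clusters. Before adjustment, 5 members reached a p of 0.05 or less, all lower (5.66% of all clusters), and the study's criterion by H2AC21 and H1-4 (0.524%).

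H2AC21, a gene of the chromosome 1 cluster, was at 10.37, 10.34 and 8.09 in gliospheres. Negative spheres had 12.21 and 10.78 and the cell line 10.66, 12.32 and 10.57, so that no gliospheres array reached any control array. This held for 1 of 32 members and for 4.05% of all clusters. BMT was at 10.4, 10.32 and 9.89 and WJT at 9.8, 9.6 and 9.66. The difference between gliospheres and control was -1.71 ± 0.55 (SE, adjusted p = 0.242 by limma), and -0.95 without gliospheres replicate 3. For H1-4 it was -1.26 ± 0.46 (SE, adjusted p = 0.321), with cell line replicate 1 (14.36) inside the range of gliospheres.

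H2BC3 and H2BC10 also had a fold above 2 with wider errors. H2BC3 was at 6.91, 7.52 and 5.43 in gliospheres against 8.18 and 6.67 in negative spheres and 6.54, 9.66 and 9.08 in the cell line, a difference of -1.41 ± 0.68 (SE). H2BC10 was at 9.21, 9.37 and 6.46 against 10.45 and 8.49 and against 7.97, 10.6 and 9.94, a difference of -1.15 ± 0.73 (SE). Both overlapped with control. Without gliospheres replicate 3 the differences were -0.81 for H2BC3 and -0.2 for H2BC10. Without that array the median of the 32 members was -0.08 and none met the study's criterion (291 of 67528 clusters lower). Without cell line replicate 1, the lowest of the cell line arrays in each of the 6 H1 genes, 7 members did. The count was 1 without negative spheres replicate 1, 5 without negative spheres replicate 2, and 4 without gliospheres replicate 1 or 2. The share of all clusters is not given for these last settings, and each array left out changes the shared error of every cluster.

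The 2 kinds of control were then taken apart in a fit of 5 groups. Against negative spheres, 30 of 32 members were lower in gliospheres (median -0.53), as were 54.1% of all clusters (median -0.02). With 1 array left out the median of the members ranged from -0.86 to -0.17, the latter without gliospheres replicate 3. None passed after adjustment (0.145% of all clusters), and 6 were lower at a p of 0.05 or less before adjustment, against 4.04% of all clusters. The 2 of smallest p were H1-4 (-1.77 ± 0.55, SE) and the near-background H1-6 (-0.66 ± 0.24). Of the 2 that were higher, H2AC6 differed by 0.52 ± 0.31 and H2BC5 by 0.19 ± 0.52.

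Against the cell line, 29 of 32 members were lower (median -0.35), beside 68.4% of all clusters (median -0.09), none after adjustment (0.342% of all clusters) and 2 at a p of 0.05 or less before adjustment (7.06%). These were H2AC21 (-1.58 ± 0.63, SE) and H2BC3 (-1.81 ± 0.75). The members that were higher included H2AC1 (0.2 ± 0.17) and H2BC12 (0.42 ± 0.49). The median was 0.01 without gliospheres replicate 3. With the replicate number as a block in these 2 groups alone, 1 member was lower at a p of 0.05 or less before adjustment and 0 after it (lowest adjusted p = 0.746, median -0.35). Negative spheres and cell line did not differ in a common direction, with 18 members higher and 14 lower and a median of 0.13. None passed after adjustment (0% of all clusters), and 2 were higher at a p of 0.05 or less before it, where 2.14% of all clusters were higher, H2AC1 (0.42 ± 0.19) and H2BC6 (0.57 ± 0.26). In the other direction H2AC6 (-0.63 ± 0.31) and H2BC3 (-1 ± 0.84) had the smallest p. The median was -0.23 without negative spheres replicate 1, 0.4 without replicate 2 and 0.31 without cell line replicate 2.

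Some replication-dependent genes can also give polyadenylated mRNAs, which persist in cells that have left the cycle. Of a list of 7 such genes 5 had a cluster of their own, and all 5 were lower in WJT than in gliospheres (median -0.69). A limma p of 0.05 or less before adjustment was reached by 3 of them, where 3.51% of all clusters were lower, and none passed after it. The 3 are among the 4 members already counted at this p for WJT against gliospheres, and so are not a separate result. Besides H2BC12, these were H2BC21 (-0.88 ± 0.35, SE) and H2AC6 (-0.69 ± 0.31). H2BC21 was at 7.75, 6.72 and 7.91 in gliospheres, 7.48, 7.47 and 6.76 in BMT and 6.95, 6.35 and 6.45 in WJT. In this gene gliospheres replicate 3 was the highest of its group. Without it the difference was -0.65 and no longer reached a p of 0.05 before adjustment. WJT overlapped with gliospheres replicate 2.

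H2AC6 was at 7, 6.68 and 6.08 in gliospheres, 6.12, 6.39 and 6.24 in BMT and 6.13, 5.85 and 5.72 in WJT. In this gene gliospheres replicate 3 fell between the 2 lower WJT arrays and the highest. H2BC5 gave -0.69 ± 0.44 and H1-2 -0.2 ± 0.41 for WJT against gliospheres. H1-2 was at 8.73, 8.35 and 7.28 in gliospheres, 8.4, 8.58 and 8.22 in BMT and 8.37, 7.75 and 7.65 in WJT, and at 9.67 and 8.74 in negative spheres and 8.12, 8.71 and 8.2 in the cell line. Against BMT all 5 were lower in WJT (median -0.4).

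The testis genes served as a floor. H2AC1 ranged from 2.79 to 3.54, H2BC1 from 2.59 to 3.27 and H1-6 from 3.4 to 4.53 over the 14 arrays. H3-4, a testis H3 gene outside the 32, gave group means of 4.93 in gliospheres, 5.44 in BMT, 5.01 in WJT, 5.62 in negative spheres and 4.98 in the cell line. None of the 4 passed after adjustment in WJT, BMT or the control comparison.

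H2A and H2B genes often lie head to head with a shared promoter region, and 5 such pairs were among the members, with start sites 215 to 245 bases apart in GRCh38.p14. The partners had unlike signals, as in H2AC20 (mean log2 17) with H2BC21 (7.32) and H2AC14 (3.9) with H2BC14 (7.67), although probes differ. In WJT against gliospheres both partners were lower in 4 pairs, H2AC20 (-0.24) with H2BC21 (-0.88), H2AC13 (-0.66) with H2BC13 (-0.47), H2AC14 (-0.53) with H2BC14 (-0.56) and H2AC25 (-0.07) with H2BC26 (-0.25). The near-background pair H2AC1 (-0.08) and H2BC1 (0.05) split.

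The 36 clusters with several histone symbols, which include the replication-dependent H3 genes, gave a separate view of the family, although their probes overlap in target with those of the members. They were lower in WJT than in gliospheres in 32 of 36 (median -0.42) and than in BMT in 35 of 36 (median -0.62). For the 12 H3 clusters the median was -0.77 in WJT against BMT, with all 12 lower, and -0.8 in gliospheres against control, with all 12 lower. Their centred medians were 0.47, 0.46 and -1.71 in gliospheres replicates 1, 2 and 3. They were 1.69 and 0.07 in negative spheres and -0.65, 2.07 and 0.12 in the cell line. Only gliospheres replicate 3 thus lay below every control array. Clusters with several symbols can share target RNAs, so the 12 are not separate observations. None of the 36 passed after adjustment in any of the 4 comparisons (lowest adjusted p = 0.34 in WJT against gliospheres and 0.219 in gliospheres against control). Gliospheres replicate 3 stood at -1.19 and cell line replicate 2 at 1.44 in their median deviation, wider than the members' -0.73 and 0.7.

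Genes that act on histone transcripts and proteins were examined beside the members. Of 25 measured genes for histone transcription and 3′ end processing, 19 were lower in WJT and 18 in BMT than in gliospheres (medians -0.1 and -0.11), with no call after adjustment. YY1, a zinc finger transcription factor, was higher in gliospheres than control by 0.57 ± 0.11 (SE, adjusted p = 0.0484 by limma). This was the 1 call among the 129 measured list entries in the 4 comparisons. In gliospheres against control 0.569% of all clusters were called, so 1 call is not read as particular to these genes. YY1 was at 9.29, 9.05 and 9.04 in gliospheres and from 8.43 to 8.71 in the 5 control arrays. LSM10, a subunit of the U7 particle that trims histone mRNAs, was lower in WJT by 0.86 on the log2 scale, with an SE of 0.21 and an adjusted p of 0.338 by limma. Its signals were 6.24, 7.09 and 6.31 in gliospheres and 5.71, 5.48 and 5.86 in WJT, and the groups did not overlap. SLBP, the stem-loop binding protein, was at 8.78, 9.14 and 8.42 in gliospheres and 8.24, 8.48 and 8.24 in WJT. Of 22 chaperone and import genes 12 were lower in WJT (median -0.06), and 0 were called in any of the 3 comparisons with gliospheres. ASF1A, an H3-H4 chaperone, differed by -0.65 ± 0.18 (SE) between gliospheres and control and UBN1, a subunit of the HIRA complex, by 0.56 ± 0.11. Among 8 replication-independent variants, 4 were lower in WJT (median 0.02). H2AX had the smallest p of these in gliospheres against control (-0.46 ± 0.21, SE).

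S-phase genes moved with the histone genes across the gliospheres arrays. For 37 of them, the median distance of gliospheres replicate 3 from replicates 1 and 2 was -1.24 log2, and their centred medians were 0.68, 0.22 and -0.92 in replicates 1, 2 and 3. In WJT against gliospheres 29 of 37 were lower (median -0.27), and in WJT against BMT 33 of 37 (median -0.21). No S-phase gene passed after adjustment in these comparisons. Within the treated groups the S-phase and histone genes did not keep the same order of arrays. In WJT replicates 1, 2 and 3 the S-phase medians were -0.45, -0.05 and -0.14, against -0.27, -0.55 and -0.62 for the members. In BMT they were 0.09, -0.2 and 0.03, against 0.03, 0.09 and -0.25. TK1, thymidine kinase, differed most in gliospheres against control (-1.16 ± 0.34, SE). In the highest arrays of the histone genes the S-phase genes stood lower, at 0.16 in negative spheres replicate 1 and 0.05 in cell line replicate 2. Genes of quiescence and cell cycle inhibition had medians of 0.07 in WJT and 0.02 in BMT, with none of 11 called. All 4 MSC markers were higher in WJT than in gliospheres (median 0.38), with no call. PDGFRB was at 10.5 in gliospheres replicate 3 against 5.79 and 6.6 in replicates 1 and 2, while NT5E was bright on every array (15.59 to 18.55) and THY1 was at 3.61 or less. Leukocyte and endothelial markers stayed at 4.25 or less. The part of S-phase share or of other cells in the histone differences was not tested.

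**Figure D4:**
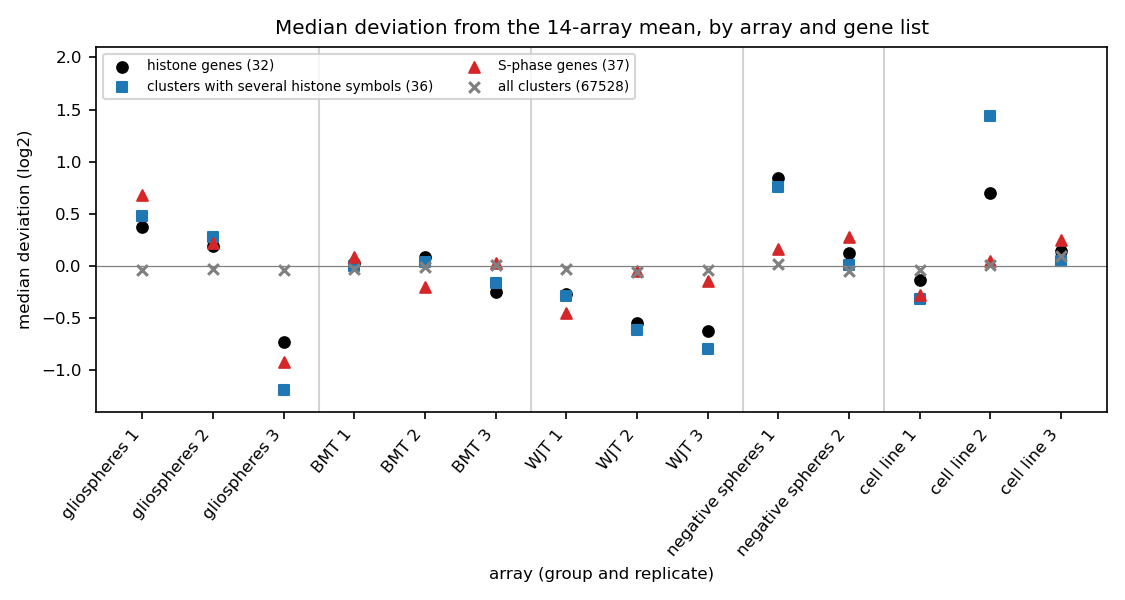
Median deviation from the 14-array mean (log2) on each array for the 32 histone genes (circles), the 36 clusters with several histone symbols (squares), 37 S-phase genes (triangles) and all 67528 clusters (crosses). Histone and S-phase genes are both low in gliospheres replicate 3, and the histone genes, in both sets of clusters, are high in negative spheres replicate 1 and cell line replicate 2.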

How the data were processed

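RNA of 14 cultures was hybridised to Human Transcriptome Array 2.0 arrays. The authors deposited 1 log2 signal per cluster and array, after background correction and joint normalization (SST-RMA) in the Transcriptome Analysis Console. Arrays were thus normalized to each other before any step here. The number of arrays limits the precision. Each limma p-value sets a group difference against the spread between arrays within groups, which is shared over all groups of the fit.

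Members were found by gene symbol in the array annotation (2 older symbols updated), with the brightest cluster standing for a gene. They and the gene lists were chosen with earlier results of these data known. The 10 lists hold 146 entries, of which 129 were measured. All 67528 clusters were fitted with limma 3.58.1 in R 4.3.3, in 4 groups (prior degrees of freedom 1.95) or, for the separate controls, 5 groups. The Benjamini-Hochberg adjustment ran over all clusters. The study names negative cells and cell line as its control, and which of the 5 arrays it used is not known here. The fit was tested on simulated data.

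The genes named were the members of smallest p with a fold of at least 2 (up to 5 a direction and comparison), the 2 brightest of each type, the 2 of smallest p in each direction against the separate controls, the polyadenylated and testis genes, and from other lists those called or of smallest p. Other members are named where a count or range turns on them, after their values were seen. Replicate numbers were checked for pairing through the deviations of arrays from their group means. Same-numbered gliospheres and cell line arrays correlated in all 3 pairs (0.284 to 0.396), a pairing that comes from the data and not from the labels. The other compared groups did not correlate in all pairs. Among groups that were not compared, same-numbered arrays also correlated for BMT with the cell line (0.164 to 0.252). The same held for WJT with negative spheres (0.26 and 0.269). Alternatives were other groupings, priors, normalizations, filters and cluster choices, array weights, a replicate block and each array left out. Python 3.11.15 with pandas 2.3.3, numpy 2.4.6 and matplotlib 3.10.9 made tables and figures.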

Additional observations from a re-analysis of the deposited data

How the results depend on the processing

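With each array left out in turn, the number of members at an adjusted p below 0.05 stayed at 0 in all 7 comparisons, and the count at the study's criterion ranged from 0 to 6 lower in WJT against gliospheres, 0 to 1 in BMT against gliospheres, 0 to 1 in WJT against BMT, 0 to 7 in gliospheres against control, 0 to 7 in gliospheres against negative spheres and 0 to 8 in gliospheres against the cell line. In negative spheres against the cell line it ranged from 0 to 1 lower and from 0 to 2 higher. Against negative spheres the count was 3 with all arrays, beside 399 of 67528 clusters lower. It was 7 without negative spheres replicate 2, 6 without gliospheres replicate 1, 1 without gliospheres replicate 3 and 0 without negative spheres replicate 1. Against the cell line the count was 2 with all arrays, beside 498 of 67528 clusters lower. It was 8 without cell line replicate 1, 4 without gliospheres replicate 1 or 2 and 1 without cell line replicate 3. It was 0 without cell line replicate 2 or without gliospheres replicate 3. Between the 2 controls the count was 2 higher without cell line replicate 2, 1 higher without negative spheres replicate 2 and 1 lower without cell line replicate 1. For most of these settings the share of all clusters is not given, so the counts describe the members only. The median log2 difference ranged from -0.78 to -0.14 in WJT, -0.33 to 0.22 in BMT and -0.47 to -0.33 in WJT against BMT. It ranged from -0.59 to -0.08 against control, -0.86 to -0.17 against negative spheres and -0.52 to 0.01 against the cell line.

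Of the other settings, the count lower in WJT at the study's criterion was 2 with only the 2 groups fitted, 0 after quantile normalization, 4 with array weights and 2 with the clusters of several symbols added. In BMT it was 1 in the fit of 5 groups, with the replicate block and with array weights. In gliospheres against control it was 1 with only the 2 groups fitted and 6 with clusters of several symbols, against negative spheres 1 and 6, and against the cell line 0 and 7. Negative spheres against the cell line gave 3 higher after quantile normalization. The shares of all clusters are not given for these settings. In a setting added after seeing the data, negative spheres were the only control and gliospheres replicate 3 was left out. WJT then had 5 members past the adjusted threshold, against 0.483% of all clusters lower. At the study's criterion 8 members were lower in WJT and 2 in BMT, beside 667 and 712 of 67528 clusters. The cause of these changes was not tested. With the same replicate numbers as a block the median was -0.34 in gliospheres against control and -0.38 in WJT, and 0 members passed the adjusted threshold. Correlations between same-numbered arrays ran from -0.297 to 0.396, with 11 of 26 above 0.1, including all 3 of gliospheres with the cell line. A replicate block with those 2 groups only, added after seeing the data, gave 1 member at the study's criterion and 0 past the adjusted threshold. The median of negative spheres against the cell line was -0.02 with the block over all arrays (0.13 without it). The 8 differences named for a fold of at least 2 kept their direction in every setting. Among all members the sign turned without gliospheres replicate 3 in 3 of 32 for WJT and 14 for BMT against gliospheres, in 7 against control, 7 against negative spheres and 13 against the cell line, and in 0 for WJT against BMT. Signals near background and the shared spread of 14 arrays limit what could be detected.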
